A study of Mus musculus with 126 samples.

Results

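The 31 genes described here encode proteins of the cytosolic ribosome. They were taken from the expression table by a fixed list of symbols, and all 31 were found, each as 1 row, among 48490 gene identifiers. Of these genes, 15 encode proteins of the large subunit (Rpl3, Rpl4, Rpl5, Rpl7, Rpl8, Rpl10a, Rpl11, Rpl14, Rpl18, Rpl19, Rpl23, Rpl27, Rpl32, Rplp0 and Rplp1). The other 16 encode proteins of the small subunit (Rps2, Rps3, Rps4x, Rps6, Rps7, Rps9, Rps14, Rps15a, Rps16, Rps18, Rps19, Rps20, Rps23, Rps24, Rps27a and Rpsa). The rule uses symbols and no expression value.

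The ribosome translates messenger RNA into protein: the small subunit decodes the message and the large subunit joins the amino acids. Most of its proteins are needed in equal numbers, and their messenger RNAs are among the most abundant of most animal cells. Many of these messages start with a run of pyrimidines, the 5′ terminal oligopyrimidine tract, through which growth signalling by the mTOR kinase adjusts their translation. A change of translation alone cannot be read from messenger RNA levels, which are what was measured here.

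The data are 126 single cells of the mouse endolymphatic sac, the blind-ended part of the inner ear that handles the fluid called endolymph, taken at E14.5. The labels give 33 cells as Wild-type and 93 as Sox9Y440X/+, heterozygous for a truncating allele of the transcription factor Sox9. These are called mutant below. Each cell was copied by Smart-seq2, a full-length protocol with no molecular identifiers, and its values are FPKM, the count of sequenced fragments divided by transcript length and by the mapped total of the cell. No animal or litter is named, so each genotype counted as 1 sample. Every SD below is over cells, there is no replicate check, and no test between groups of cells was made. FPKM files keep no read depth, which is unknown here.

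The level of a cell is the mean over the 31 genes of log2(FPKM + 1). A difference between groups of cells is the difference of such means. The relative difference of a gene is its difference less the median difference of all genes compared, those that reached 1 FPKM in 50% or more of the cells of either group. A relative difference of at least 1 on the log2 scale, 2-fold, was taken as called higher or lower.

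Sequence around the start sites was looked at first, because the pyrimidine tract is what these genes are known to share. RefSeq start sites (GRCm38.p6, the build also called mm10) were matched for 23 of the 31 genes. A run of 8 or more pyrimidines (C or T, transcribed strand) lay within 30 bases either side of the start in 11 of 23 genes (47.8%), against 22.9% of all 32851 start windows. The 5 genes printed first had long runs. Rpsa, which encodes the protein also known as the laminin receptor, is printed beside them with a run of 7, the median of the 23 genes. Each sequence is 60 bases centred on the start site, 5′ to 3′ on the transcribed strand, and capitals mark the longest run of pyrimidines.
Rpl11 (chr4:136053364-136053423, minus strand): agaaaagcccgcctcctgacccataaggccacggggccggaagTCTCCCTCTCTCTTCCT
Rpl4 (chr9:64173357-64173416, plus strand): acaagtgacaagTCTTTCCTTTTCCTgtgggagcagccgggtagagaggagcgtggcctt
Rpl14 (chr9:120571487-120571546, plus strand): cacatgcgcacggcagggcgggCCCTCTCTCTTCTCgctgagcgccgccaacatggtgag
Rps18 (chr17:33955636-33955695, minus strand): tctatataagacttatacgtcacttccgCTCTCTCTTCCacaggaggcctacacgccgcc
Rps6 (chr4:86857338-86857397, minus strand): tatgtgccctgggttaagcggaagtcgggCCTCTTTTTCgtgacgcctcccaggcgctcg
Rpsa (chr9:120127736-120127795, plus strand): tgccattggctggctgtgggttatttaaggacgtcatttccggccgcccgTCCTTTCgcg

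Within these windows the runs were 17 bases in Rpl11, 14 in both Rpl4 and Rpl14, 11 in Rps18 and 10 in Rps6. The run of Rpl4 began at -18 from the start and ended before it. That of Rpl11 began at 13 and reached the end of the window, so a run need not be a terminal tract. The 6 letters CCGGAA, searched on both strands over 250 bases before to 50 after the start, were in 11 of the 23 promoters (47.8%) and in 14.9% of all windows of that length. The letters TATAAA, searched on the transcribed strand in the 50 bases before the start, were in 0 of 23 and in 2.63% of all windows. In Rplp0 and Rps2 these letters lay just after the start used. The start used lay 1947, 2614, 3553 and 336 bases from the GENCODE gene start in Rps2, Rpl18, Rps24 and Rps18. Positions and matches therefore depend on the start chosen. The set of all windows holds several start sites for some genes, and a match of letters is a description, not a site.

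The genes were listed in nearly every cell. All 31 reached 1 FPKM in each of the 33 wild-type cells. They did so in 90 of the 93 mutant ones. By mean FPKM, 21 of the 31 were among the 100 most abundant genes of the table and all 31 were among the first 500. The cell P9-D11, a mutant cell, stood far from the rest: its level was 2.27, 14 of the 31 genes were at 0, and its summed FPKM of 60901.7 was the lowest of the 126 cells. Levels and set medians that hold this cell are therefore given with and without it. Relative differences of single genes include it unless said otherwise, and the largest move of any of them without it was 0.0984. Apart from it, 2 values were 0, that of Rpl10a in the mutant cell P9-D01 and that of Rps2 in the mutant cell P9-H03.

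Levels differed widely between the genes, on a scale that is per length. Over all 126 cells the highest mean log2(FPKM + 1) values were those of Rps18 (10.49 ± 0.78, SD over cells), Rps4x (10.49 ± 1.15) and Rpl7 (10.43 ± 1.12). Rps18 (chr17:33951999-33956001) encodes a protein of the small subunit head, Rps4x (chrX:102184941-102189394) is the X-linked member, and Rpl7 (chr1:16101295-16104662) belongs to the large subunit. The lowest were Rps20 (7.48 ± 1.08, chr4:3831334-3835665), Rpl14 (8.22 ± 1.15, chr9:120571517-120574653) and Rps15a (8.30 ± 1.04, chr7:118104372-118116188). The SDs of these neighbours in the order are larger than the gaps between them.

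Single genes are shown here by their FPKM, giving the lowest, median and highest cell. Rps18 ran from 787.9 through 1754 to 2960 in the wild-type cells and from 346.0 through 1444 to 4358 in the mutant cells other than P9-D11. Rps20 ran from 130.7 through 297 to 651 in the wild-type cells and from 23.3 through 163 to 460 in those mutant cells. The ranges of both genes overlapped between genotypes, and the median of Rps20 was lower in the mutant cells by a wider margin. Rplp0, which encodes the base of the stalk that recruits translation factors, had medians of 610 and 483 FPKM in wild-type and mutant cells. Rplp1, the acidic stalk protein bound to it, had medians of 1590 and 1278.

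Genes with roles outside the ribosome were also listed throughout. Rpl5 and Rpl11 encode the proteins that, with 5S ribosomal RNA, bind the p53 regulator MDM2. Rpl5 had median FPKM values of 390 in wild-type cells and 355 in mutant cells, and Rpl11 had 1015 and 777. Rps27a encodes ubiquitin fused to a small subunit protein, and had medians of 1028 and 704. Rps6, whose protein is phosphorylated downstream of mTOR, had medians of 917 and 764. Rps19 and Rps14, known from Diamond-Blackfan anaemia and the 5q- syndrome, had medians of 840 and 557 and of 1699 and 1240. Rpl3, whose protein lies near the peptidyl transferase centre, had medians of 783 and 552. The medians of these 7 genes were lower in the mutant cells, by margins that differed between genes, with P9-D11 left out.

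**Figure D1:**
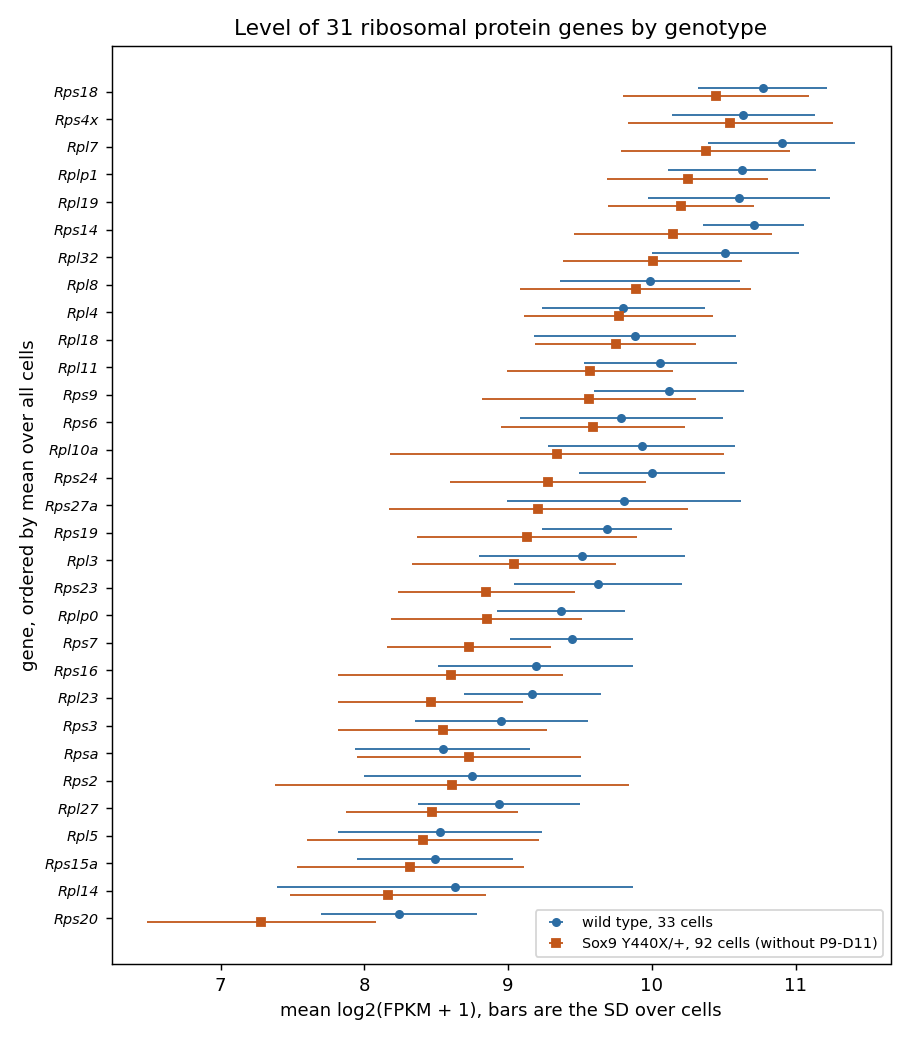
Mean log2(FPKM + 1) of each of the 31 genes (vertical axis, ordered by the mean over all cells) in 33 wild-type cells (circles) and 92 mutant cells without P9-D11 (squares), with bars for the SD over cells. The mutant mean lies left of the wild-type mean for every gene except Rpsa, and the bars of the genotypes overlap throughout.

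Across the genotypes the set as a whole was lower in the mutant cells, and so was the median of all compared genes. The level was 9.65 ± 0.33 (SD, n = 33 cells, 8.94 to 10.49) in wild-type cells and 9.16 ± 0.84 (n = 93, 2.27 to 10.19) in mutant cells, or 9.23 ± 0.43 (n = 92, from 7.99) without P9-D11. The difference, mutant minus wild type, was -0.50, and -0.42 without that cell. After median-ratio scaling it was -0.17. The cells of the groups overlapped, and the mutant cell was the higher in 21.8% of all mutant and wild-type pairs. Of the 31 genes, 30 had a lower mean in the mutant cells. The median difference of the 3304 genes compared was -0.53, and the median relative difference of the 31 genes was -0.01, or 0.02 without P9-D11. Over 18 alternatives it ran from -0.52 to 0.28 and changed sign in 11, so no direction relative to other genes can be read from it. The middle 50% of all compared genes ran from -0.43 to 0.41. None of the 31 was called higher and none lower, where 5.81% of all compared genes were called higher and 7.72% lower. Relative to all genes, 15 of the 31 lay above 0 and 16 below.

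At the upper end stood Rpsa, with a relative difference of 0.62. Its log2(FPKM + 1) ran from 7.11 through a median of 8.60 to 10.05 in wild-type cells and from 5.05 through 8.76 to 10.36 in mutant cells other than P9-D11. Rpsa was the only one of the 31 whose mean was higher in the mutant cells, by 0.09, and its groups overlapped almost fully. Rpl4 followed at a relative 0.40 and Rpl8 at 0.37. Without P9-D11 these 3 were at 0.67, 0.46 and 0.39, and Rps4x at 0.40 stood before Rpl8. The protein of Rpl4 lines the exit tunnel of the large subunit and that of Rpl8 lies near its catalytic centre.

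At the lower end stood Rps20, with a relative difference of -0.51. It ran from 7.04 through 8.22 to 9.35 in wild-type cells and from 4.60 through 7.36 to 8.85 in mutant cells other than P9-D11, on the log2(FPKM + 1) scale. Its mean difference of -1.03 was the largest of the set, and its groups still overlapped. Rps23, whose protein lines the decoding centre, was at a relative -0.30 and Rps7 at -0.28. Without P9-D11 Rps20 was at -0.46, Rps23 at -0.28 and Rps24, at -0.23, stood before Rps7 at -0.22. These 4 genes belong to the small subunit. Of the genes named for their roles, the relative difference was -0.08 for Rplp0, 0.04 for Rplp1, -0.11 for Rps27a, 0.02 for Rpl3, 0.32 for Rpl5, -0.01 for Rpl11, 0.29 for Rps6, -0.09 for Rps19, -0.14 for Rps14 and 0.32 for Rps4x.

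Other features of the cells moved with the genotype label, and their part in the lower level was not tested. Fewer genes were listed above 0 in mutant cells, with a median of 4423 against 5329. At least 3 of 6 epithelial markers were found in 82 of 93 mutant cells and 32 of 33 wild-type cells. At least 3 of 8 mesenchymal markers were found in 11 of 93 mutant cells and 3 of 33 wild-type cells. The summed FPKM of 10 genes of the dissociation response had a median of 1466 in mutant cells (114 to 3120) and of 2655 in wild-type cells (129 to 5567), and all 10 were listed in some cells of each genotype. Cell titles also carry an undefined prefix, which is P10 for 32 of 33 wild-type cells and P9 for all mutant cells. Genotype and prefix therefore cannot be told apart. The single wild-type cell titled P9, P9-H12, had a level of 9.56. This lay within 1 SD of the wild-type mean (9.65 ± 0.33) and of the mutant mean without P9-D11 (9.23 ± 0.43). A single cell cannot separate prefix from genotype. Of the mutant cells, 4 listed a Y-linked gene (P9-D12, P9-E12, P9-F12 and P9-G12), against 32 of the 33 wild-type cells. The mean level of those 4 was 9.25. The labels used here give no sex. Listing of Y-linked genes went with genotype in nearly all cells, so sex and genotype cannot be told apart, also for the X-linked Rps4x. Sox9 itself had the same mean in both groups, 3.34 ± 1.61 and 3.33 ± 1.44 on the log2(FPKM + 1) scale, and a value per gene does not show the truncating change, so it does not check the labels.

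The number at the end of the title also went with the level. Mutant cells with the numbers 01 to 04 had a mean level of 8.99 ± 0.43 (32 cells), and those with 05 to 12 had 9.36 ± 0.38 (60 cells, without P9-D11). The 8 cells numbered 01 had the lowest mean, 8.58 ± 0.44, and 7 of these 8 lay below 9. Wild-type cells hold only the numbers 01 to 04, apart from P9-H12, with means of 9.63, 9.40, 9.86 and 9.72. When cells numbered 01 to 04 alone were compared, the level difference was -0.67 (32 against 32 cells). When mutant cells with those numbers were left out, it was -0.41 with P9-D11 (61 cells) and -0.29 without it (60 cells). The relative difference was -0.03, -0.01 and 0.02 in these settings. The labels do not say what the number stands for, and these settings were chosen after the data were seen.

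**Figure D2:**
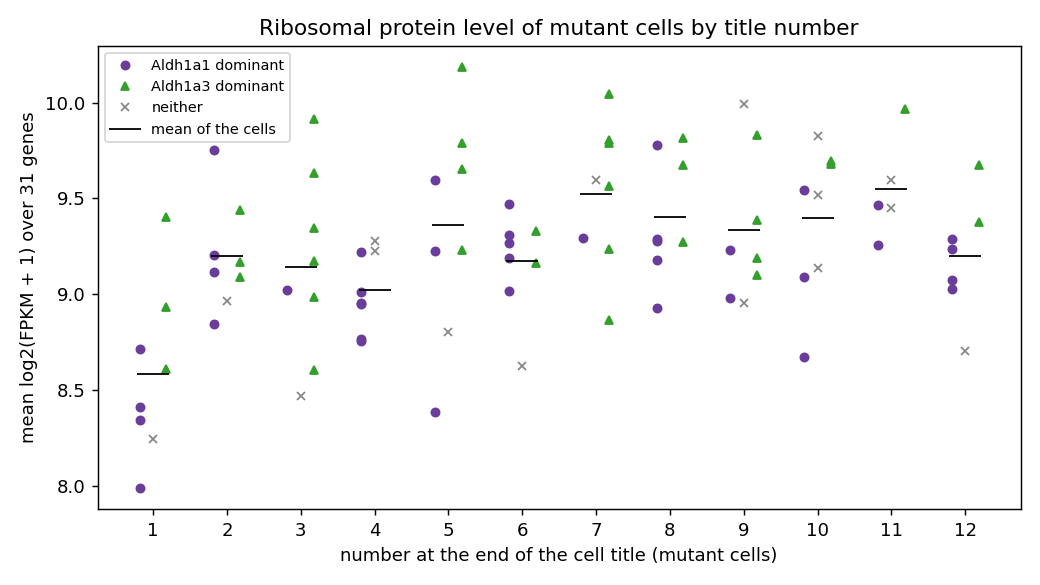
Level of the 31 genes (mean log2(FPKM + 1), vertical axis) in 92 mutant cells by the number at the end of their title (horizontal axis), with symbols for the dominant Aldh1a gene and bars for the mean of the cells. Cells numbered 01 lie lowest, with a mean of 8.58, and the triangles average above the circles by 0.36 over the 11 numbers that hold both.

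A second grouping used Aldh1a1 and Aldh1a3, genes for enzymes that make retinoic acid. A gene was dominant in a cell where its log2(FPKM + 1) exceeded that of the other by at least 1. In the mutant cells the set was higher where Aldh1a3 was dominant: the level was 9.43 ± 0.39 (n = 36 cells, 8.60 to 10.19) against 9.08 ± 0.37 (n = 40, 7.99 to 9.78) where Aldh1a1 was dominant. This difference of 0.36 compares with a median of -0.34 over the 3213 genes compared, so the median relative difference was 0.70. With the log of group means it was 0.31. All 31 genes lay above the all-gene median, and 30 of 31 had a higher mean in the Aldh1a3 cells. Cells of the groups overlapped, with the Aldh1a3 cell the higher in 74.2% of pairs.

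Rps19, Rps18 and Rps15a, all of the small subunit, were called higher. These are 3 of 31 genes (9.68%), a share near the 10.7% of all compared genes called higher, and none was called lower against 14.4% of all. Rps19 ran from 8.18 through 9.60 to 10.64 in Aldh1a3 cells and from 6.01 through 8.88 to 9.87 in Aldh1a1 cells on the log2(FPKM + 1) scale, a relative difference of 1.17. The middle of its values was shifted while the ranges overlapped. Rps18 was at a relative 1.02 and Rps15a at 1.01, just inside the 2-fold line, and Rpl32 at 0.94 was just outside. The number called higher was 15 with a pseudocount of 0.1 and 0 with one of 10, settings for which the share of all genes called is not given. Rps2 was lowest at 0.16 and Rpl19 next at 0.47. The lowest Rps2 value among these cells was the 0 of P9-H03.

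In the wild-type cells the order was the same and the step was smaller. The level was 9.77 ± 0.32 (n = 16 cells, 9.29 to 10.49) in Aldh1a3 cells and 9.60 ± 0.28 (n = 14, 9.22 to 10.15) in Aldh1a1 cells, a difference of 0.16 that is less than 1 SD of either group. Among cells with 3000 to 5000 listed genes it was -0.11. The all-gene median was -0.30 and the median relative difference of the 31 genes was 0.49, or 0.06 among cells with 3000 to 5000 listed genes. Again all 31 lay above the all-gene median, and 24 of 31 had a higher mean in Aldh1a3 cells. None was called higher, against 17.8% of the 4687 genes compared, and none lower, against 17.4%.

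The highest relative differences in wild-type cells were those of Rpl14 (0.78) and Rpl10a (0.74), and the lowest those of Rpsa (0.04) and Rpl27 (0.11). Rpl14 ran from 8.22 through 9.01 to 10.23 in Aldh1a3 cells and from 7.73 through 8.67 to 9.36 in Aldh1a1 cells. In the mutant cells the same 4 genes were at 0.50, 0.70, 0.75 and 0.55, so Rpsa was not among the low ones there. Whether the step differs between genotypes was not tested.

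Some features moved with dominance as well, and their part in the step was not tested. Fewer genes were listed above 0 in the Aldh1a3 cells, with medians of 4958.5 against 5664 in wild-type and 4264.5 against 4694.5 in mutant cells. Among mutant cells of the same title number, 11 numbers held both kinds, and the mean step over them was 0.36. It ran from -0.003 to 0.65, was close to 0 in the numbers 2 and 6, and rests on 1 cell of a kind in the numbers 3, 7 and 11. One wild-type Aldh1a3 cell, P10-G01, had an FPKM sum of 16361089, and scaling each cell to the same sum turned the wild-type level difference to -0.15. When the feature AC155839.1, which fills the sum of such cells, was left out of the scaling, it was 0.16.

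Within each class of dominance the level was also lower in mutant cells. Among Aldh1a1 cells it was -0.52 (9.08 against 9.60), with a median relative difference of -0.01. Over the alternatives it ran from -0.76 to -0.13. Among Aldh1a3 cells it was -0.33 (9.43 against 9.77), with a median relative difference of 0.27. With every cell scaled to the same FPKM sum this level difference was -0.001, and the relative difference changed sign in 3 of 20 alternatives (-0.23 to 0.66). Among Aldh1a3 cells 1 of 31 genes (3.23%) was called higher, Rpsa at 1.06, against 10.8% of the 3666 compared genes. None was called lower, against 13.6%. These values come from the same cells as the comparisons above.

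**Figure D3:**
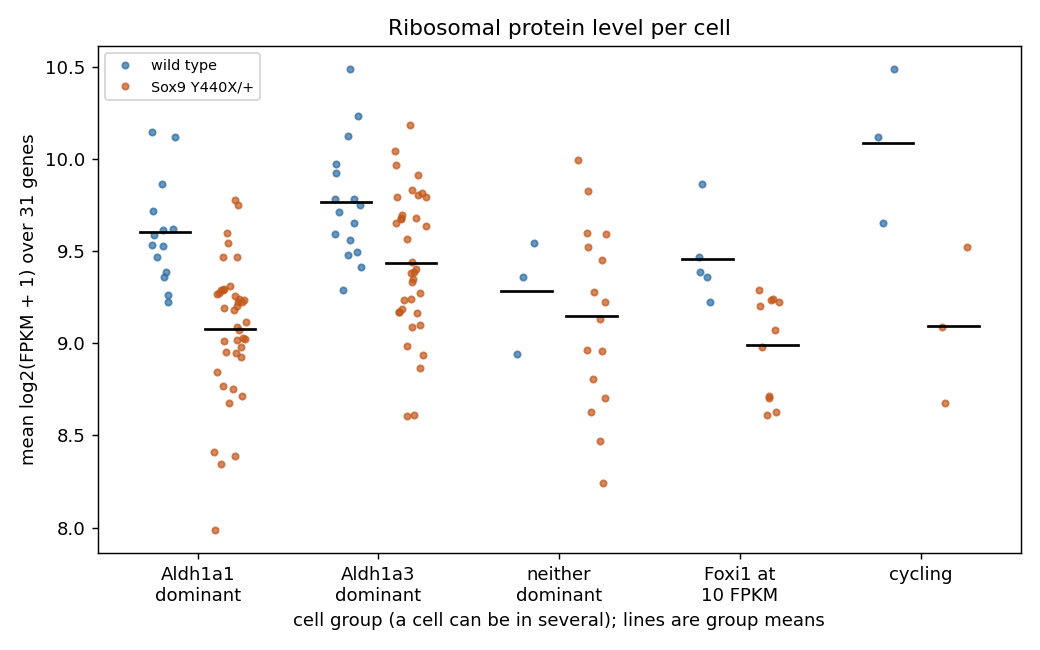
Level of the 31 genes (mean log2(FPKM + 1), vertical axis) in each wild-type (blue) and mutant (orange) cell by cell group, without P9-D11, with lines for group means. Aldh1a3 cells average 9.77 and 9.43 in the genotypes against 9.60 and 9.08 for Aldh1a1 cells, and every pair of neighbouring groups overlaps except the wild-type and mutant cycling cells.

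Cells with Foxi1 at 10 FPKM or more formed the third grouping. Foxi1 is the transcription factor of mitochondria-rich cells, which carry proton pumps and anion exchangers. There were 16 such cells, 5 wild-type and 11 mutant, and 12 of them had 3 or more of 8 mitochondria-rich markers, against 0 of the other 110 cells. Foxi1 itself is among the 8, so this count is not independent of the rule. The level of the 31 genes was 9.14 ± 0.34 (8.61 to 9.86) in the Foxi1 cells and 9.31 ± 0.81 in the others, or 9.37 ± 0.45 without P9-D11. The difference was -0.17, and -0.23 without that cell, less than 1 SD of either group. Over the alternatives tried it was below 0 in all 17, from -0.52 to -0.14.

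Against other genes the gap was wider, because the median of the 4152 genes compared was higher in the Foxi1 cells by 0.71. The median relative difference of the 31 genes was -0.88 (-0.93 without P9-D11), and all 31 lay below the all-gene median. Rpl3, Rpl7, Rpl10a, Rpl23, Rpl32, Rplp0, Rps15a, Rps19, Rps23 and Rps24 were called lower. These 10 of 31 (32.3%) stand beside 13.1% of all compared genes called lower, and none was called higher against 12.8%. Without P9-D11, 12 genes were called lower. Just outside the line was Rps20 at -0.99. The number called was 28 with a pseudocount of 0.1, and 0 with one of 10, with the log of group means or with no filter on low values. For these settings, and without P9-D11, the share of all genes called is not given. With no filter the median relative difference was -0.16, and with the log of group means it was -0.44. It was -0.84 when genes had to reach 1 FPKM in 90% of the cells of either group.

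The lowest relative differences were -1.20 in both Rps19 and Rpl7. Rps19 ran from 7.31 through 9.02 to 9.61 in the Foxi1 cells and from 3.90 through 9.40 to 10.64 in the others, P9-D11 included. The groups overlapped. Rplp1 (-0.37) and Rps2 (-0.42) stood nearest to the other genes, and with Rps27a, Rpl14 and Rpl18 they made up the 5 genes whose mean was higher in the Foxi1 cells. Rplp1 ran from 9.72 through 10.56 to 11.30 in the Foxi1 cells against a median of 10.38 in the others.

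In each genotype alone the values were similar in size. Among wild-type cells the level was 9.46 ± 0.24 in the 5 Foxi1 cells, with values of 9.22, 9.36, 9.38, 9.47 and 9.86, against 9.69 ± 0.33 in the other 28. The median relative difference was -0.91, lowest in Rps23 (-1.46) and Rpl10a (-1.33) and nearest 0 in Rps2 (-0.36) and Rplp1 (-0.39). Among mutant cells the level was 8.99 ± 0.27 against 9.18 ± 0.89 (9.26 ± 0.44 without P9-D11). The median relative difference was -0.96 (-1.02 without P9-D11), lowest in Rps19 (-1.28) and Rplp0 (-1.27), or in Rpl7 (-1.36) and Rplp0 (-1.35) without P9-D11, and nearest 0 in Rplp1 (-0.44) and Rps27a (-0.45).

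Foxi1 and Aldh1a1 overlapped as markers: 5 of 5 wild-type and 8 of 11 mutant Foxi1 cells were Aldh1a1 dominant. Among Aldh1a1 cells alone, the wild-type Foxi1 cells had a level of 9.46 ± 0.24 (5 cells) and the others 9.68 ± 0.28 (9 cells). The mutant Foxi1 cells had 9.12 ± 0.19 (8 cells) and the others 9.07 ± 0.41 (32 cells), so the lower level was not seen in mutant cells once Aldh1a1 was dominant in both groups. Foxi1 cells also listed more genes, with a median of 5531 against 4542.5. One of the 8 mesenchymal markers was compared, Dcn, with a relative difference of 4.68. Dcn passed the filter only through the Foxi1 cells, where it was high. The summed FPKM of the 8 had a median of 242 in the Foxi1 cells (0 to 1575) and of 0 in the others (0 to 2141), and Col3a1, Pdgfra and Prrx1 were at 0 in all Foxi1 cells. The part of these in the result was not tested.

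**Figure D4:**
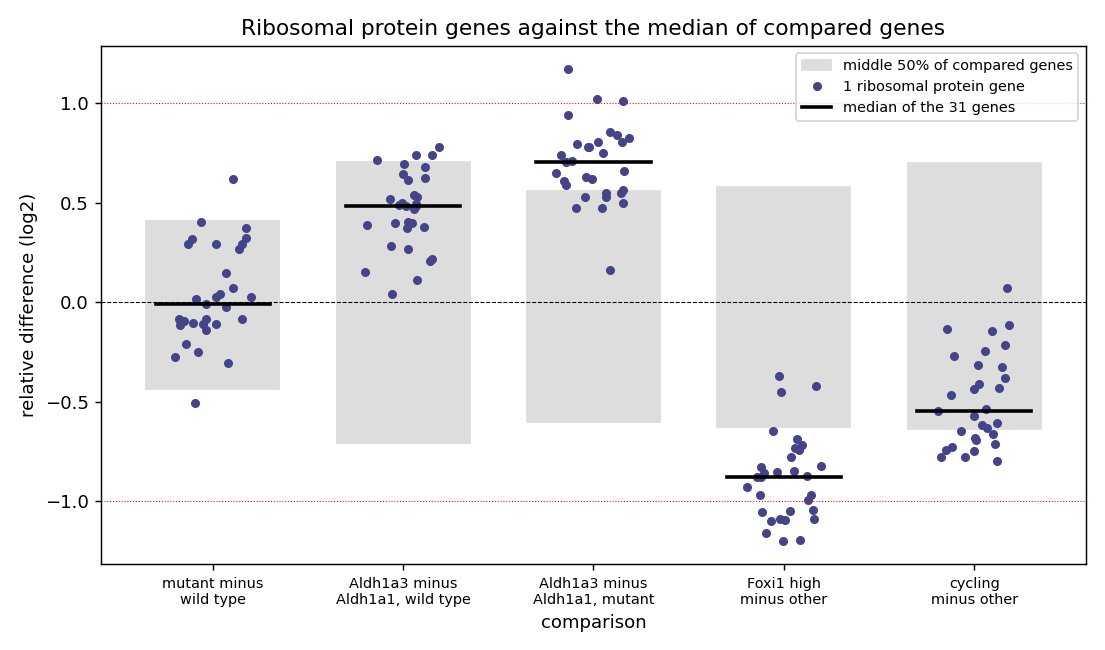
Relative difference (log2, vertical axis) of each of the 31 genes in 5 comparisons, with the median of the 31 as a line and the middle 50% of all compared genes as a grey box. Dotted lines mark the 2-fold rule. The medians are -0.01, 0.49, 0.70, -0.88 and -0.55 from left to right.

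Cycling cells were those with 5 or more of the 7 division genes Top2a, Mki67, Cdk1, Ccnb1, Ccnb2, Birc5 and Ube2c at 5 FPKM or more. There were 6. Their level was 9.59 ± 0.66 (8.67 to 10.49) against 9.27 ± 0.78 in the other 120 cells, or 9.33 ± 0.43 without P9-D11. All 31 genes had a higher mean in the cycling cells. The level difference of 0.32 was 0.26 without P9-D11, 0.10 after median-ratio scaling and 0.07 among cells with Epcam at 1 FPKM or more. The median of the 5312 genes compared was higher by more, 0.81, so the median relative difference was -0.55 (-0.60 without P9-D11) and 30 of the 31 genes lay below the all-gene median. With no filter on low values the median was 0.28, of the opposite sign, and with the log of group means it was -0.01. None was called higher, against 17.2% of all compared genes, and none lower, against 15.3%.

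The lowest relative differences were those of Rpl3 (-0.80) and Rps14 (-0.78), and the highest those of Rpl14 (0.07) and Rps2 (-0.11). Without P9-D11 the lowest were Rps4x and Rps14, both at -0.85. Rpl14 ran from 7.97 through 9.04 to 10.23 in the cycling cells and had a median of 8.44 in the others. Its groups overlapped.

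Each genotype holds 3 cycling cells, too few to place a mean closely, and the difference between the genotypes was not tested. The 3 wild-type cycling cells stood at 9.65, 10.12 and 10.49, against 9.61 ± 0.29 in the other 30 wild-type cells. The 3 mutant cycling cells stood at 8.67, 9.09 and 9.52, against 9.16 ± 0.85 in the other 90 (9.23 ± 0.43 without P9-D11). Every wild-type cycling cell was thus above the mean of the other wild-type cells, while the mutant ones lay on both sides of theirs. The level difference was 0.48 in wild-type cells and -0.06 in mutant cells (-0.14 without P9-D11). The latter ran from -0.99 to 0.26 over the alternatives, with 1 change of sign, at 3000 to 5000 listed genes. The mutant cycling cell at 8.67, P9-C10, had an FPKM sum of 3767700, of which the 31 genes made up 0.39%. Scaling to equal sums lowers that cell against the others.

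Against the median of the genes compared, which was 1.14 higher in them, the set was lower in the mutant cycling cells. There the median relative difference was -1.26 (-1.29 without P9-D11), all 31 genes lay below 0 and 21 (67.7%) were called lower, where 24.9% of the 4654 compared genes were called lower. None was called higher, against 24% of all. In the wild-type cycling cells the median was -0.32, 2 genes (6.45%) were called lower against 25.6% of the 5322 compared, and none higher against 24.5%. With no filter on low values the median was -0.08 in mutant cells, with 0 genes called, and 0.59 in wild-type cells. The lower place of the set thus depends on the filter, which a gene could pass through the cycling cells alone.

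In wild-type cells Rpl5 (-1.12) and Rps6 (-1.005) had the lowest relative difference and Rps16 (0.06) and Rpl14 (0.02) the highest. In mutant cells Rpl32 (-1.82) and Rps14 (-1.78) were lowest and Rplp0 (-0.42) and Rps2 (-0.49) highest, with the same genes at both ends without P9-D11.

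The cycling cells differed from the rest in other ways, whose part was not tested. They listed more genes, with a median of 5895 against 4619.5. All 6 epithelial markers were called lower in them, with a median relative difference of -3.23. The summed FPKM of those markers ran from 0 to 4908 in the cycling cells and from 0 to 8582 in the others, and 4 of the 6 cycling cells had 3 or more of them. The 8 mesenchymal markers summed to 0 to 519 in the cycling cells, with Dcn at 0. The 3 wild-type cycling cells all have titles ending in 03.

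The 31 genes varied together and varied little. With P9-D11 left out, the Pearson correlation of each gene with the mean of the other 30 across 125 cells had a median of 0.58 (0.41 to 0.76). The genes of a cell share the depth and detection of its library. After median-ratio scaling over 537 widely listed genes the median was 0.34. Rps19 (0.55), Rps23 (0.51) and Rps9 (0.50) then followed the others most closely. Rpl19 (0.02), Rpl27 (0.13) and Rpl4 (0.16) followed them least. This order was not the same within a genotype. In 33 wild-type cells Rps7 (0.62) and Rps23 (0.60) were highest and Rps14 (-0.05) and Rps24 (0.08) lowest, while Rps19 and Rpl19 were both at 0.27. In 92 mutant cells Rps19 (0.59) was highest and Rpl19 (-0.11) lowest. The SD over cells of the 31 genes had a median of 0.70, against 2.55 for 2557 other compared genes. It was 1.12 for the 169 of those with means at or above the lowest of the 31. These 169 have no upper limit and include other cytosolic ribosomal protein genes.

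The subunits kept their ratio. Wild-type cells had a large subunit mean above the small subunit mean by 0.22 ± 0.14, and mutant cells by 0.27 ± 0.25. It was 0.20 ± 0.14 and 0.31 ± 0.27 in Aldh1a1 cells of the genotypes, 0.22 ± 0.12 and 0.23 ± 0.21 in Aldh1a3 cells, 0.27 ± 0.16 in Foxi1 cells and 0.27 ± 0.11 in cycling cells. These groups lay within 1 SD of each other. Across the 125 cells the subunit means had a Pearson correlation of 0.90, or 0.69 after scaling.

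The genes most like the set were sought among 2588 compared genes, by the correlation across 125 cells with the scaled level. Of the 50 closest, 17 were among the 31, 14 were other cytosolic ribosomal protein genes, 15 were predicted genes or pseudogenes and 4 were others. Each of the 31 was correlated with a level that contains it, which raises its own place, so the 17 is no separate support. The 8 closest genes outside those classes were Nap1l1 (0.41), a histone chaperone, Mdk (0.41), the growth factor midkine, Nrep (0.41), Id3 (0.39), an inhibitor of helix-loop-helix factors, Aldh1a3 (0.38), Gas5 (0.38), a snoRNA host gene, Col11a1 (0.36) and Ddah2 (0.36). Gnas (-0.51), which encodes a G protein subunit, and Ftl1 (-0.50), the ferritin light chain, lay among the lowest. The correlations are descriptions only, as the genes of a cell share its library.

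The other genes of translation show which of these patterns went beyond the 31. The remaining cytosolic ribosomal protein genes, 48 of 49 matched, behaved alike. Their median relative difference was -0.03 between genotypes, 0.42 and 0.72 between Aldh1a3 and Aldh1a1 cells of wild-type and mutant, -0.87 in Foxi1 cells and -0.52 in cycling cells. Of these 48, 1 was called lower in mutant cells (Rpl30, -1.15), with Rpl28 next at -0.38, and Rps13 (0.53) and Rack1 (0.52) were highest. In the Foxi1 cells all 48 lay below 0 and 12 (25%) were called lower, against 13.1% of all compared genes. In the mutant Aldh1a3 cells all 48 lay above 0 and 6 (12.5%) were called higher, near the 10.7% of all.

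Translation factors differed from this in the genotype comparison. Of 19, 17 lay above 0 in the mutant cells, with a median relative difference of 0.45. Called higher were Eif3l (1.14), a subunit of initiation factor eIF3, and Nap1l1 (1.05), whose message carries a pyrimidine tract, while Eef1d (-0.60) and Eif3f (-0.28) were lowest. Genes of ribosome biogenesis had a median of -0.07 over 12 compared, with Nop56 (0.90) and Nop58 (0.78) highest and Ubtf (-1.17), for polymerase I transcription, and Nop10 (-0.73) lowest. Of 12 mTOR and tract regulators 3 were compared: Eif4ebp1 (0.56), Larp4 (0.35) and Rheb (-0.32). Of 7 paralogues of ribosomal protein genes 4 were compared, all below 0, with Rpl36al (-1.003) and Rps27l (-0.57) lowest and Rps4l (-0.12) and Rpl22l1 (-0.36) highest.

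The ribosomal proteins of mitochondria did not follow the cytosolic ones. Between genotypes their median relative difference was -0.32 over 18 compared, with Mrpl27 (-1.67) and Mrpl33 (-0.99) lowest and Mrps36 (0.57) and Mrpl15 (0.14) highest. Between Aldh1a3 and Aldh1a1 cells it was -0.25 in wild-type (13 of 19 below 0) and -0.29 in mutant cells (11 of 16 below 0). In the Foxi1 cells it was 0.66, with 16 of 20 above 0. Among these 20, Mrps10 and Mrps34 passed the filter only through the Foxi1 cells, so a high value was favoured. How far the 16 of 20 rests on such genes was not tested. Of these 20, 3 (15%) were called higher, near the 12.8% of all compared genes. In the cycling cells it was 1.02, with 11 of 19 (57.9%) called higher against 17.2% of all and 2 (10.5%) lower against 15.3%. Ribosome biogenesis genes had a median of 0.38 in the cycling cells, where Fbl, the rRNA methylase fibrillarin, was at 3.06 and its partner Nop56 at 2.37. Fbl passed the filter only through the cycling cells, where it was high, so a high value was favoured. Other genes of these lists could enter in the same way.

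Some values are uncertain because reads can be shared. Rows named as pseudogenes of 23 of the 31 genes were in the table, 78 rows in all. Their summed FPKM was 29.1% of that of the gene for Rpl3, 24.7% for Rps27a, 16.7% for Rpl14, 16.6% for Rpl27, 15.8% for Rps2 and 12.2% for Rpsa. Over the 31 genes the median was 0.089%. The authors' counting could split reads between these copies, so the position of Rpl3, Rps27a, Rpsa, Rpl14, Rpl27 and Rps2 at the ends of the orders above is uncertain. In the GENCODE vM21 annotation, 10 genes host 22 snoRNA genes in all and 10 overlap another gene, among them Rpl3 with Syngr1, Rps18 with Vps52, Rps27a with Clhc1 and Rps2 with Snhg9. The strand setting is not given in the sources used here, so reads of such partners cannot be told apart.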

How the data were processed

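Single cells were measured by Smart-seq2. The authors deposited FPKM values, 1 column per cell, with mm10 as the build in the submitters' processing notes. The tools listed in the submitters' processing notes are Cufflinks, HTSeq, HISAT2 and SAMtools 0.1.18, with no roles stated. Neither strand setting nor annotation release is given there. Of 48555 rows, those of 49 repeated identifiers were added up. All 37 mitochondrial rows are 0, and the summed FPKM of a cell ran from 60901.7 to 16361089 (median 462792).

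From these values log2(FPKM + 1) was computed with Python 3.11.15, numpy 2.4.6 and pandas 2.3.3, with figures from matplotlib 3.10.9. The log scale understates differences of low genes. Groups followed the genotype labels and the expression rules of the report. With 1 sample per genotype no test of a difference between groups was made. The code was tested on simulated data. Gene names and overlaps come from GENCODE vM21, start-site sequences from RefSeq.

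The 31 genes, the other gene lists and the groupings were chosen with earlier results of these data known. Named genes are the 3 highest and 3 lowest by level, by genotype difference and by likeness to the rest, the 2 highest and 2 lowest in the other groupings and, within the other lists, by genotype difference, the 8 most alike outside ribosomal proteins, predicted genes and pseudogenes, and a fixed set of known roles. Other genes named were chosen after their values were seen. Alternatives changed the pseudocount, the filter, the scaling, the group rules and the cells kept. No count table was used here.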

Additional observations from a re-analysis of the deposited data

Results flagged for a closer look

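The level of the 31 genes in the mutant cell P9-D11 was 2.27, far below the other cells whose titles end in 11. Each of 20 groups of 4 to 10 cells was searched for a value apart from the rest, by the gap to the nearest cell over the range. This group of 6 cells was the only one flagged. Its gap, to a nearest cell at 9.26, was 0.908 of the range, against a limit of 0.625. With such limits chance alone flags about 1 in 20 groups. The cell also had the lowest summed FPKM and listed 14 of the 31 genes at 0.

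The level of cycling cells less that of other cells was 0.48 among wild-type cells and -0.062 among mutant cells, or -0.14 without P9-D11. Each genotype holds 3 cycling cells, and the difference between the genotypes was not tested.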

How the results depend on the processing

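Of 173 pairs of a value answering a comparison and an alternative, 167 moved by less than the SD over cells and 6 by more. The level difference between wild-type Aldh1a3 and Aldh1a1 cells was -0.15 with every cell scaled to the same FPKM sum, and the cell P10-G01 carries that sum. The relative difference was 0.31 for mutant Aldh1a3 cells with the log of group means, 0.059 for wild-type Aldh1a3 cells with 3000 to 5000 listed genes, and -0.16 for Foxi1 cells and 0.28 for cycling cells with no filter on low values, where most genes are at 0. It was -1.86 for cycling cells with 3000 to 5000 listed genes, where 1 cycling cell was left. The cause of these moves was otherwise not tested. The genotype level difference was negative in all 18 alternatives, from -0.67 to -0.17, while its relative difference, near 0, changed sign in 11 of 18 (-0.52 to 0.28).

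Counts called depend on the settings. Genes called higher in mutant Aldh1a3 cells numbered 0 to 15 against 3, genes called lower in Foxi1 cells 0 to 28 against 10, and genes called lower in cycling cells 0 to 28 against 0. The highest counts of the first 2 came from a pseudocount of 0.1. Shares of all compared genes called are given for the main setting only, so counts under other settings have no share to be read against. Leaving out P9-D11, scaling without AC155839.1, the comparison within title numbers and the settings by title number were added after seeing the data. Foxi1 at 1 FPKM and the other cycling rules chose the same cells. No paired analysis was possible because animals are unnamed and the labels give cells of the genotypes no shared replicate. Read depth is unknown, so a 0 says only that a gene is listed at 0.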
